A study of Mus musculus with 6 samples.

Results

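The genes described here are 9 members of the oxidative stress response governed by the transcription factor NRF2: Hmox1, Nqo1, Slc7a11, Gclc, Gclm, Txnrd1, Srxn1, Nfe2l2 and Sqstm1. They were chosen as a list of 9 Ensembl transcript identifiers, with earlier results of these data known. Counts of them beside the share of all transcripts are therefore a description. All 9 were found among the 81690 transcripts of the deposited table. The gene name of each identifier came with the list, since the table holds identifiers only. The cells were resident peritoneal macrophages washed from the abdominal cavity of female C57BL/6J mice aged 8 to 12 weeks, pooled from several animals in each experiment and selected by adherence to plastic. In each of 3 replicate experiments, 1 well received human LDL oxidized with CuSO4 (oxLDL) at 25 µg/mL for 24 h and the other received vehicle, the group labelled unstim. Labelled cDNA was read on Affymetrix Mouse Exon 1.0 ST arrays, 3 per group, which carry probes along the exons of each gene. A value is the log2 intensity of a transcript, and a change is oxLDL minus vehicle on that scale. Adherence is the only selection of macrophages, and the lineage markers were not analysed here because no other identifier was paired with a gene.

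NRF2, the product of Nfe2l2, is a basic leucine zipper transcription factor that is held in the cytoplasm by KEAP1 and degraded there. Electrophiles and oxidants modify cysteines of KEAP1, after which NRF2 accumulates, enters the nucleus and binds antioxidant response elements together with small MAF proteins. Its targets supply glutathione, reduce thioredoxin and peroxiredoxins, detoxify quinones and break down haem. In macrophages this response is known as a defence against oxidized lipids. NRF2 is controlled largely at the level of protein stability, which an array of transcripts does not measure.

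The core of the antioxidant response element is written TGACNNNGC, and a related site with an AP-1 core is TGAGTCAGC. Both were searched on both strands of the RefSeq promoter windows of build GRCm38.p6, which run from 250 bases before to 50 after a transcription start. The windows were matched by symbol for 7 of the 9 members (9 windows, 3 of them for Txnrd1), and Hmox1 and Gclc were not matched. TGACNNNGC was found for 4 of these 7 genes, in 4 of 9 windows, and in 12.4% of all 32851 windows. TGAGTCAGC was found for 1 of the 7, Srxn1, and in 0.414% of all windows, and a stretch that matches it does not match TGACNNNGC, as the fourth letter differs. No match was found for Slc7a11, Sqstm1 or Nqo1, or in the other windows of Txnrd1. As matching was by symbol, a window need not belong to the measured transcript. The windows that hold a match are shown 5′ to 3′ on the strand of the gene, with the matches in capitals. A match on the opposite strand appears as its reverse complement, starting GC. The windows are chr2:152105274-152105573 (plus strand) for Srxn1, chr10:82858956-82859255 (plus strand) for Txnrd1, chr3:122245307-122245606 (plus strand) for Gclm, and chr2:75704614-75704913 (minus strand) for Nfe2l2.
Srxn1: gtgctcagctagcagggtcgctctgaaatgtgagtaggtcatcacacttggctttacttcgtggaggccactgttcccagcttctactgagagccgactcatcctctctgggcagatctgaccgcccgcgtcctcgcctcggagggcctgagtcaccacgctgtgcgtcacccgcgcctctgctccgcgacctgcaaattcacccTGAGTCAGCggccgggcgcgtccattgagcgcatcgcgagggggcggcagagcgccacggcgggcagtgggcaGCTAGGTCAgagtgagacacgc
Txnrd1: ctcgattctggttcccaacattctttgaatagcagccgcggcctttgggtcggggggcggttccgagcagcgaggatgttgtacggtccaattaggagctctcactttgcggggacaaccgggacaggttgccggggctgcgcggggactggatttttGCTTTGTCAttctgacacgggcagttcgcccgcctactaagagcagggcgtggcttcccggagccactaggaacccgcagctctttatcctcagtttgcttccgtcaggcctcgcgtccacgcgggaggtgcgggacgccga
Gclm: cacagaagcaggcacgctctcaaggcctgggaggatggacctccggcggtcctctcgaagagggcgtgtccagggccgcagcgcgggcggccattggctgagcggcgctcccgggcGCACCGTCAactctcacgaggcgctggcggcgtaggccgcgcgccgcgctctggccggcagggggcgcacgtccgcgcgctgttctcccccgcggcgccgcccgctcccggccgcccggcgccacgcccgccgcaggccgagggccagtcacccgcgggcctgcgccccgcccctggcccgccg
Nfe2l2: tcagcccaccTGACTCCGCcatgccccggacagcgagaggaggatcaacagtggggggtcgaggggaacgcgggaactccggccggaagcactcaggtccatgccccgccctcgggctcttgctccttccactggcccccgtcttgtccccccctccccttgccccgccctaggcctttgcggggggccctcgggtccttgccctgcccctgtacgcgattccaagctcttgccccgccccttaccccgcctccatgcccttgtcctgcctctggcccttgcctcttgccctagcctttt
In Srxn1 the match TGAGTCAGC began at base -45 from the start site, and TGACCTAGC lay downstream of it on the opposite strand. The match was TGACAAAGC in Txnrd1 and TGACGGTGC in Gclm, both on the opposite strand, and TGACTCCGC on the gene strand in Nfe2l2. These are matches of letters and no measure of binding.

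Most of the members rose modestly with oxLDL, Nfe2l2 fell, and Nqo1, which was below the filter and not tested, had lower values. In all 3 experiments oxLDL gave a higher value than vehicle for 7 members and a lower value for the remaining 2. Of all tested transcripts, 20.3% were higher and 46.4% lower in every experiment. The changes lay between -0.54 and 0.62. Of the 9 members, 8 had a mean over the 6 arrays above 8.74, the median of all transcripts, and were among the 40845 transcripts tested with limma. At a q-value (the estimated share of false calls) below 0.05, 6 of the 8 were higher with oxLDL and 1 was lower, where 10.7% of all tested transcripts were called higher and 30.8% lower. None of the 8 changed by at least 2-fold, although 7 had an unadjusted p under 0.05 with limma, as had 40.7% of all tested transcripts. The q-value threshold was slightly looser here, passed by 41.5% of them, since the share of unchanged transcripts was estimated at 38.5%. Over all tested transcripts, 0.686% were higher and 2.45% lower past both the q-value and the 2-fold threshold. The oxLDL arrays lay entirely above the vehicle arrays for 6 of the 8 tested members and entirely below for 1, against 12.7% and 32.5% of all tested transcripts. The median change was 0.37 over the 8 tested members and -0.10 over all tested transcripts. As these are bulk samples, a change in the RNA of each cell cannot be told apart from a change in the cells present in the well after 24 h.

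**Figure D1:**
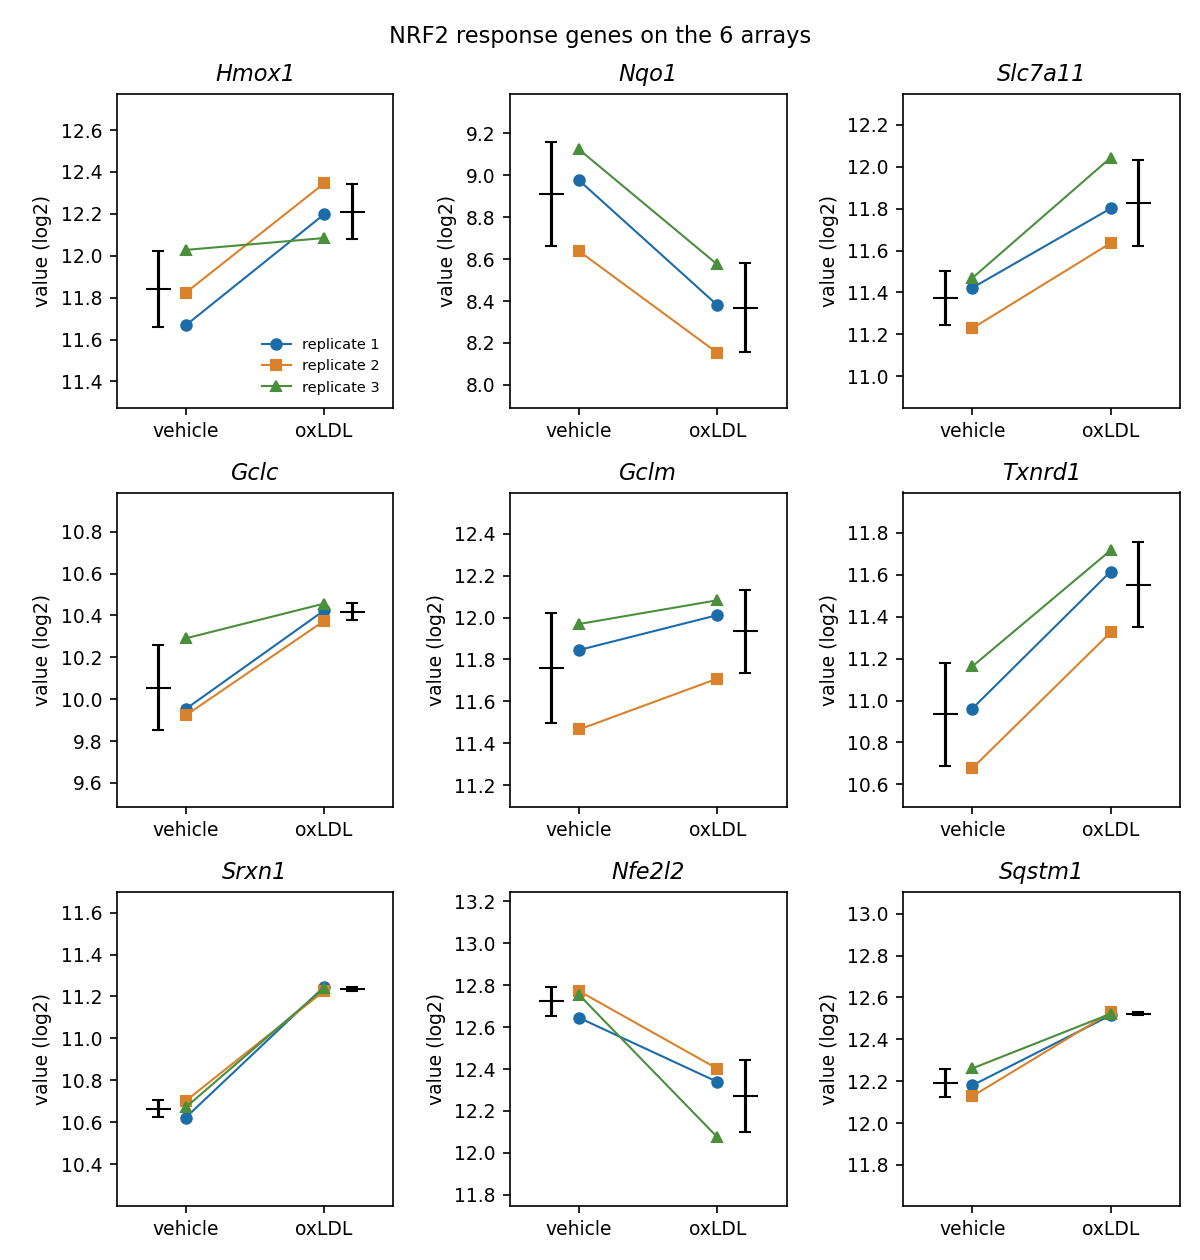
Values (log2) of the 9 members on the vehicle and oxLDL arrays, with a line joining the arrays of the same replicate number, and a bar for the mean ± SD (n = 3) of each group beside the points. Each panel spans the same range of log2 units. The lines of Nqo1 and Nfe2l2 descend in all 3 experiments and those of the other 7 genes ascend, with overlap between the groups only for Gclm.

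Hmox1 (ENSMUST00000005548_at) encodes haem oxygenase 1, which cleaves haem to biliverdin, iron and carbon monoxide. Its value was 11.67, 11.82 and 12.03 with vehicle in replicates 1, 2 and 3, and 12.20, 12.35 and 12.08 with oxLDL in the same order. All oxLDL arrays were above all vehicle arrays, but the margin was 0.06, since vehicle array 3 was the highest of its group and oxLDL array 3 the lowest. The means were 11.84 ± 0.18 and 12.21 ± 0.13 (SD, n = 3), a change of 0.37 (standard error 0.12, 95% confidence interval 0.11 to 0.63, q = 0.0138 from limma), or 1.29-fold. The rise was 0.53 and 0.52 within experiments 1 and 2 and 0.06 within experiment 3. Without vehicle array 1 the change was 0.28 and the call was lost (q = 0.0636). It was also lost in the fit with replicate pairs as a block and each transcript's own variance (q = 0.0814), a fit in which no transcript had a q-value below 0.034, but was kept with the pairs as a random block (q = 0.00509).

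Of the 3 glutathione genes, Slc7a11 and Gclc rose, and Gclm, though higher in every experiment, did not pass the test. Slc7a11 (ENSMUST00000029297_at) encodes xCT, the transport subunit of the antiporter that imports cystine, from which the cell takes the cysteine for glutathione. Its value was 11.42, 11.23 and 11.47 on the vehicle arrays and 11.80, 11.64 and 12.04 on the oxLDL arrays, in the order of replicates 1, 2 and 3. Every oxLDL array was above every vehicle array. The means were 11.37 ± 0.13 and 11.83 ± 0.21 (SD, n = 3), a change of 0.45 (standard error 0.12, 95% confidence interval 0.19 to 0.72, q = 0.00697 from limma), or 1.37-fold.

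Gclc (ENSMUST00000034905_at) and Gclm (ENSMUST00000029769_at) encode the catalytic and modifier subunits of glutamate-cysteine ligase, the rate-limiting enzyme of glutathione synthesis. Gclc had values of 9.95, 9.92 and 10.29 with vehicle and 10.42, 10.37 and 10.46 with oxLDL. The oxLDL arrays of Gclc were close together (SD 0.04) and all above the vehicle arrays (SD 0.20), of which the third was the highest. The change of Gclc was 0.36 (standard error 0.11, 95% confidence interval 0.11 to 0.61, q = 0.0131 from limma), or 1.29-fold. This call was lost without vehicle array 1 (change 0.31, q = 0.0544) and with the replicate block and own variances (q = 0.0583), but not with the random block (q = 0.00381). Gclm had values of 11.85, 11.47 and 11.97 with vehicle and 12.01, 11.71 and 12.08 with oxLDL. Here the groups overlapped, as oxLDL array 2 lay below vehicle arrays 1 and 3. The change of Gclm was 0.17 (standard error 0.14, 95% confidence interval -0.15 to 0.50) and did not pass the test (q = 0.152 from limma), although it was positive in 3 of 3 pairs, at 0.17, 0.24 and 0.11. Without oxLDL array 2 it was 0.29 (q = 0.0479), which passed, and without vehicle array 2 it was 0.03 (q = 0.356). These fits leave out the pairing. Experiment 2 was the lowest in both groups, so dropping 1 of its arrays raises the mean of that group alone. The q-value of Gclm was 0.0825 with the pairs as a random block and 0.0584 with a fixed block. With the replicate block and own variances it was 0.0508, just above the threshold and below that of Gclc in the same fit.

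The thioredoxin genes showed the 2 largest rises of the list. Txnrd1 (ENSMUST00000020484_at) encodes cytosolic thioredoxin reductase, a selenoprotein that returns oxidized thioredoxin to its reduced form at the expense of NADPH. Its value was 10.96, 10.68 and 11.16 on the vehicle arrays and 11.62, 11.33 and 11.72 on the oxLDL arrays. The 3 experiments differed in level, with experiment 2 lowest in both groups, yet the change within them was alike at 0.65, 0.65 and 0.55. The means were 10.93 ± 0.24 and 11.55 ± 0.20 (SD, n = 3), a change of 0.62 (standard error 0.14, 95% confidence interval 0.30 to 0.93, q = 0.00359 from limma), or 1.54-fold.

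Srxn1 (ENSMUST00000041500_at) encodes sulfiredoxin, which repairs peroxiredoxins that have been overoxidized by peroxide. Its value was 10.62, 10.70 and 10.67 with vehicle and 11.25, 11.23 and 11.24 with oxLDL. The arrays of each group lay close together, and the gap of 0.52 between the lowest oxLDL and the highest vehicle array was the widest of the 9 members. The means were 10.66 ± 0.04 and 11.24 ± 0.01 (SD, n = 3), a change of 0.57 (standard error 0.08, 95% confidence interval 0.39 to 0.76, q = 0.000297 from limma), or 1.49-fold. Txnrd1 and Srxn1 kept their calls under each of the 17 alternatives, with changes of 0.49 to 0.74 for Txnrd1 and 0.55 to 0.71 for Srxn1.

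The regulators moved in opposite directions. Nfe2l2 (ENSMUST00000102672_at) encodes NRF2 itself, and its value was 12.64, 12.77 and 12.75 on the vehicle arrays against 12.34, 12.40 and 12.07 on the oxLDL arrays. All oxLDL arrays were below all vehicle arrays, and oxLDL array 3 was the lowest. The means were 12.72 ± 0.07 and 12.27 ± 0.17 (SD, n = 3), a change of -0.45 (standard error 0.11, 95% confidence interval -0.69 to -0.22, q = 0.00407 from limma), or 1.37-fold lower. The fall was thus larger than the spread between arrays and than the median change of all tested transcripts. It missed the threshold in the fit with the replicate block and own variances (q = 0.0561), and passed with the random block (q = 0.00103).

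Sqstm1 (ENSMUST00000102774_at) encodes p62, an autophagy receptor that binds KEAP1 and thereby releases NRF2, and that is itself a target of NRF2. Its value was 12.18, 12.13 and 12.26 with vehicle and 12.51, 12.53 and 12.52 with oxLDL. The oxLDL arrays were nearly identical and all above the vehicle arrays. The means were 12.19 ± 0.07 and 12.52 ± 0.01 (SD, n = 3), a change of 0.33 (standard error 0.09, 95% confidence interval 0.14 to 0.52, q = 0.00605 from limma), or 1.26-fold. The call was kept under each of the 17 alternatives.

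Nqo1 (ENSMUST00000003947_at) encodes a quinone reductase that is widely used as an indicator of NRF2 activity. Its value was 8.98, 8.64 and 9.12 on the vehicle arrays and 8.38, 8.15 and 8.57 on the oxLDL arrays. Every oxLDL array was below every vehicle array, by a margin of 0.06, and the difference was -0.60, -0.49 and -0.55 within experiments 1, 2 and 3. The means were 8.91 ± 0.25 and 8.37 ± 0.21 (SD, n = 3), so the oxLDL mean was below the filter value of 8.74 and the vehicle mean above it. With its mean over the 6 arrays below the filter, Nqo1 was not tested in the reported fit. When all 81690 transcripts were tested, the change of -0.54 had a standard error of 0.15 and a q-value of 0.0217 (limma). Whether the signal of Nqo1 on the oxLDL arrays exceeded background was not tested, since detection calls were not used here.

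**Figure D2:**
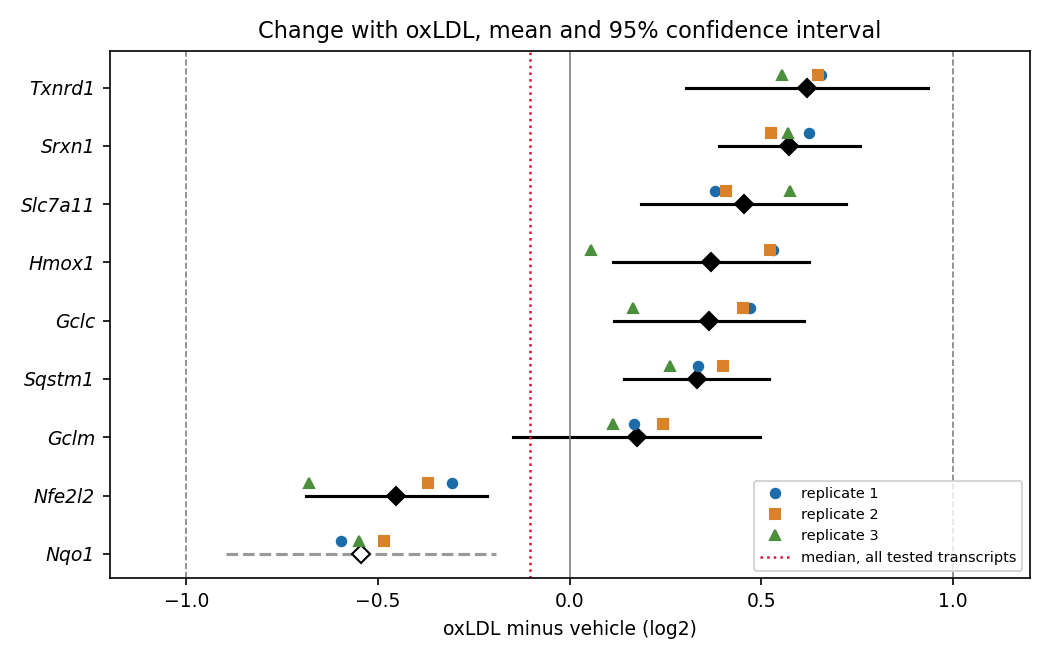
Change with oxLDL (log2) for each member, ordered by size, with diamonds for the mean of 3 pairs, horizontal lines for the 95% confidence interval from limma, and coloured symbols for the change within each replicate experiment. The open diamond and dashed line of Nqo1 come from the fit without the filter. Dashed vertical lines mark 2-fold, which no interval reaches, and the dotted line marks the median of all tested transcripts at -0.10.

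The order of the changes, from the largest rise, was Txnrd1, Srxn1, Slc7a11, Hmox1, Gclc, Sqstm1, Gclm, Nfe2l2 and Nqo1. The intervals of the 7 members with a positive change, which leave out the pairing of the arrays, overlapped, and values from 0.39 to 0.50 lay inside all 7. Taken within the experiments, the changes of neighbours kept their order in 3 of 3 experiments for 2 of the 8 neighbouring pairs. Sqstm1 exceeded Gclm by 0.17, 0.16 and 0.15 (mean 0.16 ± 0.01, SD, n = 3), and Gclm exceeded Nfe2l2 by 0.47, 0.61 and 0.79 (mean 0.63 ± 0.16). For the other neighbours the sign of the difference varied between experiments. These neighbours were set by the order of the changes, so the differences are a description without a test. Levels of different members were not compared, because probe sets differ in brightness for the same amount of RNA. Among the changes of all 40845 tested transcripts, ranked from the lowest to the highest, Txnrd1 stood at the percentile 97.8, Srxn1 at 97.4, Slc7a11 at 95.8, Hmox1 at 94.1, Gclc at 93.9, Sqstm1 at 93.0, Gclm at 85.4 and Nfe2l2 at 13.0. Nfe2l2 thus lay in the lower part of a distribution whose centre was itself below 0.

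**Figure D3:**
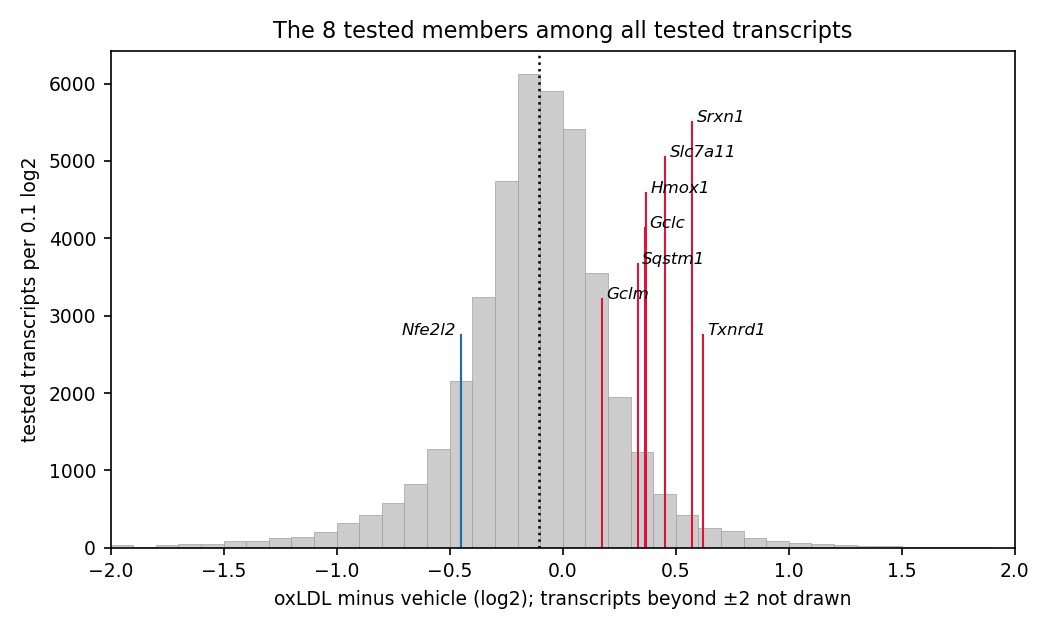
Histogram of the change with oxLDL (log2) of the 40845 tested transcripts, in bins of 0.1, with a vertical line for each of the 8 tested members (red higher, blue lower) whose height carries no value. The dotted line is the median of all tested transcripts, -0.10. The 7 members with a positive change lie in the right flank between 0.17 and 0.62, short of 2-fold, and Nfe2l2 lies in the left.

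The size of some changes varied between experiments, and so did the arrays as a whole. The median change of all tested transcripts was -0.06, -0.02 and -0.24 within experiments 1, 2 and 3. Measured from these medians, Hmox1 was higher by 0.59, 0.54 and 0.29, so that experiment 3 still gave the smallest rise. Gclc was higher by 0.53, 0.47 and 0.40 on this scale, Gclm by 0.23, 0.26 and 0.35, and Sqstm1 by 0.39, 0.42 and 0.50. Slc7a11 was higher by 0.44, 0.42 and 0.81, and Srxn1 by 0.68, 0.54 and 0.81, with the largest value in experiment 3. Nfe2l2 differed from the median by -0.25, -0.35 and -0.44, and Nqo1 by -0.54, -0.47 and -0.31. After the shift of the arrays was taken off, the difference was thus positive in each experiment for 7 members and negative for Nfe2l2 and Nqo1, counting Gclm, which did not pass the test, and Nqo1, which was not tested. When the deposited values were quantile-normalized, the median change of all tested transcripts became 0.02, and the share of transcripts called at a q-value below 0.05 became 24.4% higher and 21.6% lower. The members' calls were the same, 6 higher and 1 lower, with changes of 0.74 for Txnrd1, 0.71 for Srxn1, 0.57 for Slc7a11, 0.52 for Gclc, 0.48 for Hmox1, 0.44 for Sqstm1 and -0.34 for Nfe2l2. Gclm was at 0.28 (q = 0.0771) and Nqo1, untested, at -0.48.

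**Figure D4:**
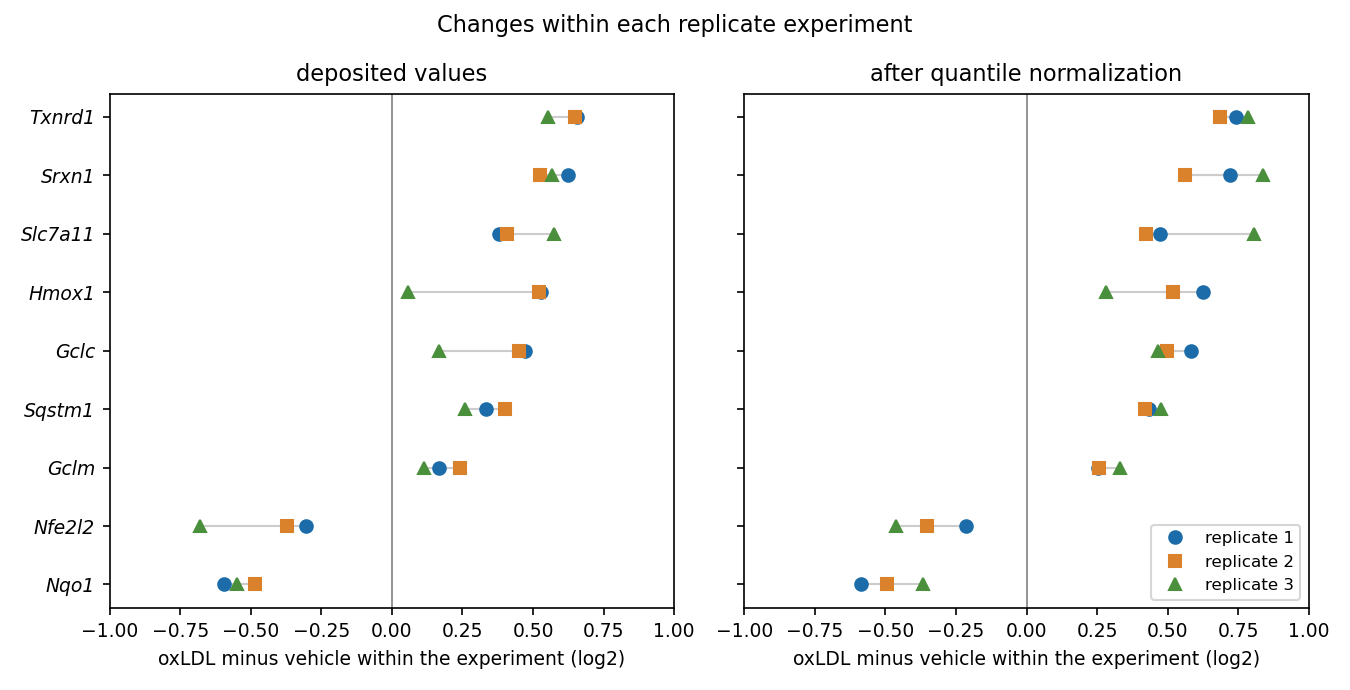
Change with oxLDL (log2) within replicate experiments 1, 2 and 3 for each member, from the deposited values on the left and after quantile normalization on the right, with a grey line joining the 3 experiments. Hmox1 in experiment 3 moves from 0.06 to 0.28 and Gclc from 0.17 to 0.47, and the sign of every member is the same in both panels.

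Whether members changed unequally was examined by taking the difference between a pair of them on each array, for 4 pairs of related function. The difference of Hmox1 minus Nfe2l2 was -0.98, -0.95 and -0.73 on the vehicle arrays and -0.14, -0.06 and 0.01 on the oxLDL arrays. The groups did not overlap, and the shift was 0.82 (95% confidence interval 0.57 to 1.07; exact permutation test, two-sided, p = 0.1, the smallest that 3 arrays against 3 allow, and 0.2 after Benjamini-Hochberg adjustment over the 4 pairs). For Sqstm1 minus Nfe2l2 it was -0.46, -0.64 and -0.49 with vehicle and 0.18, 0.13 and 0.45 with oxLDL, a shift of 0.78 (95% confidence interval 0.47 to 1.10; exact permutation p = 0.1, adjusted 0.2). Hmox1 and Sqstm1 rose and Nfe2l2 fell in 3 of 3 experiments. These 2 shifts therefore restate the changes given above, and their sign in each experiment followed from them. Gclm minus Gclc was 1.89, 1.54 and 1.68 with vehicle and 1.59, 1.33 and 1.63 with oxLDL, a shift of -0.19 (95% confidence interval -0.57 to 0.19; exact permutation p = 0.3, adjusted 0.4), with overlapping groups. The shift was negative within each experiment, at -0.30, -0.21 and -0.05, and lay between -0.27 (without vehicle array 2) and -0.09 (without vehicle array 1) with an array left out. Srxn1 minus Txnrd1 shifted by -0.05 (95% confidence interval -0.57 to 0.48; exact permutation p = 0.7). Within the experiments it was -0.03, -0.12 and 0.01, and the interval from these 3 paired shifts, a form chosen after the data were seen, was -0.22 to 0.13. On the same paired form the interval was -0.50 to 0.13 for Gclm minus Gclc, 0.63 to 1.02 for Hmox1 minus Nfe2l2, and 0.41 to 1.16 for Sqstm1 minus Nfe2l2. The shift of Srxn1 minus Txnrd1 was 0.10 without vehicle array 2 and 0.03 without oxLDL array 3, so its sign was not fixed.

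**Figure D5:**
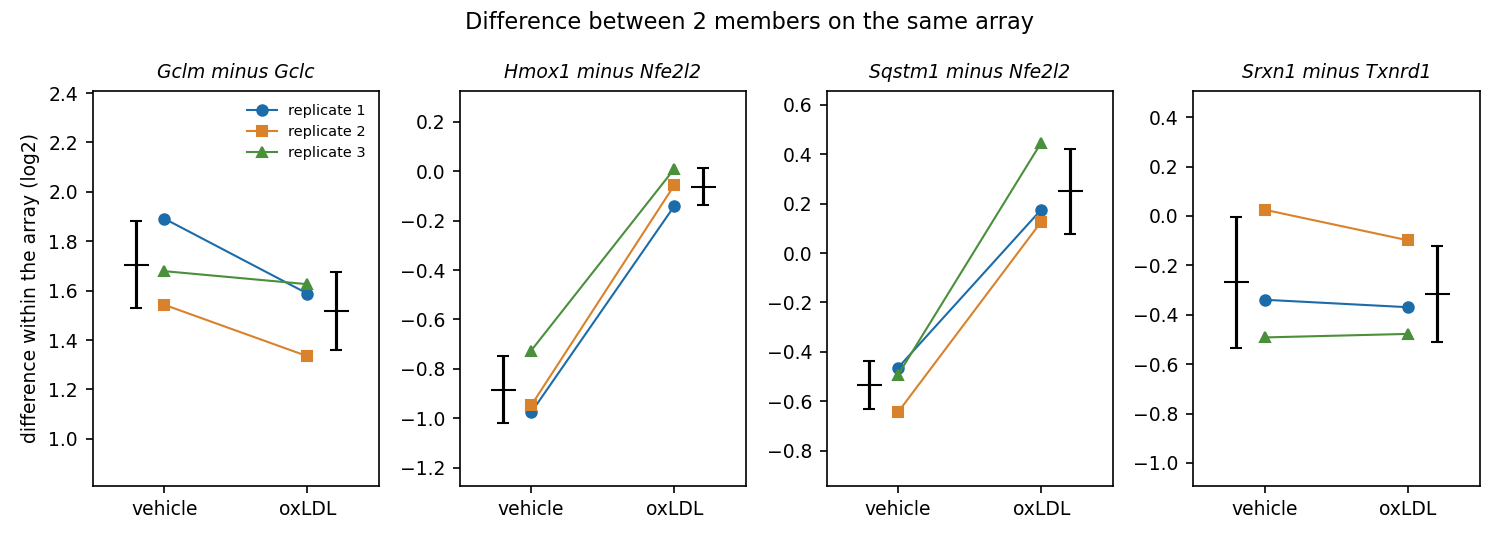
Difference between the log2 values of 2 members on the same array, for 4 pairs, with lines joining arrays of the same replicate number and bars for the mean ± SD (n = 3). Each panel spans the same range. The differences from Nfe2l2 rise by 0.82 for Hmox1 and 0.78 for Sqstm1 without overlap of the groups, while the groups overlap for Gclm minus Gclc and Srxn1 minus Txnrd1.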

How the data were processed

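Gene expression was measured on 6 arrays, 3 vehicle and 3 oxLDL, grouped and numbered from the sample labels. The authors applied quantile normalization to the probe measurements, with no background adjustment, and obtained transcript values with PLIER from CustomCDF version 15 probe sets of Ensembl release 65 transcripts, then deposited a log2 value per transcript and array. The log base was taken from the range of the values, 5.95 to 14.42, and any offset is not given in the sources used here. The precision is limited by the 3 arrays per group.

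Transcripts with a mean above 8.74 were tested (40845 of 81690), in place of the detection calls, with limma 3.58.1 in R 4.3.3 (two-sided, prior proportion 0.1, no covariate) and Storey q-values over all of them. Thresholds were a q-value below 0.05 and, separately, a 2-fold change.

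The experiments divided 1 pool of cells between both wells. Deviations from the group means correlated at 0.51, 0.67 and 0.58 between same-numbered arrays, so the numbers pair the arrays. The correlations of -0.53 to -0.04 otherwise add no separate support, because deviations from a group mean cancel within the group. Alternatives were 3 forms of the replicate block, 3 filters, an offset of 16, quantile normalization, median centring, a variance trend with robust estimation, Benjamini-Hochberg adjustment and each array left out. The 9 members were the transcripts to be named. The members and lists were chosen with earlier results of these data known. Lists of further NRF2 pathway genes and of cell type markers were not analysed here, because no table given pairs their identifiers with symbols. The promoter windows came from RefSeq (GRCm38.p6).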

Additional observations from a re-analysis of the deposited data

How the results depend on the processing

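Over the 17 alternatives, the changes of the 8 tested members gave 136 values, of which 0 reversed in direction and 130 stayed on the same side of the q threshold. The 5 lost calls were Hmox1 and Gclc without vehicle array 1, and Hmox1, Gclc and Nfe2l2 with the replicate block and each transcript's own variance. The 1 gained call was Gclm without oxLDL array 2. With each array left out, the number of members called higher ranged from 4 (without vehicle array 1, where 6.7% of all tested transcripts were called higher and 23.7% lower) to 7 (without oxLDL array 2, 10.3% and 36.3%), the number called lower was 1 with any array left out, and the number past the 2-fold threshold was 0. The number called lower was 2 with no filter and 2 with a filter per group, because Nqo1 was then tested. Of all transcripts in these fits, 17.3% were called lower with no filter and 32.3% with the filter per group. In the filter per group Nqo1 passed only through the vehicle group, where it is higher, so that its call there is no support. The number was 0 with the replicate block and own variances, which also left 4 called higher. That fit called 8.67% of all tested transcripts higher and 16.1% lower, against 10.7% and 30.8% in the reported fit. The pairs as a random replicate block changed no call, and as a fixed replicate block in limma, where all transcripts shared 1 variance, none either. The counts with no fold-change threshold are those given at a q-value below 0.05.

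The shift of Srxn1 minus Txnrd1 ranged from -0.16 to 0.10 with each array left out, Gclm minus Gclc from -0.27 to -0.09, Hmox1 minus Nfe2l2 from 0.77 to 0.90, and Sqstm1 minus Nfe2l2 from 0.69 to 0.85. With swaps within the replicate pairs in place of all splits, the exact p-values were 0.25, 0.25, 0.25 and 0.5 for Gclm minus Gclc, Hmox1 minus Nfe2l2, Sqstm1 minus Nfe2l2 and Srxn1 minus Txnrd1, where 0.25 is the smallest that 3 pairs allow. Signal over background was not assessed for the members, including Nqo1, which lay below the filter.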
